A study of Mus musculus with 32 samples.

Results

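Vbp1 and Uxt are X-linked genes for proteins of the prefoldin family. Both rows were taken by symbol from 4 tables of allelic expression in XEN cells of the mouse, and they make up 2 of 1006 listed genes. XEN cells are cultured stem cells of extraembryonic endoderm, a lineage that forms yolk sac tissue. The pair was chosen by its Xa and Xi levels and Xi shares in these same tables, so what follows describes levels and carries no test. The tables split expression into the active X (Xa) and the inactive X (Xi) in cells of a 129S1/SvImj X JF1/Ms cross, where sequence differences between the strains mark the allele.

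The 12 groups are named WT, XistpA, XRR_KO and XRRa_KO (3, 4, 2 and 3 samples), XRRb_XaKO, XRRb_XiKO, XRRc_XaKO and XRRc_XiKO (2 samples each), Rad21 degron with DMSO or dTAG (4 samples each, from 2 clones pooled in the columns), and Ctcf degron with DMSO or dTAG for 48 h (2 samples each). XRR_KO was given as 2 clones. The labels do not say what XistpA is, what was removed in the XRR lines, or how long the Rad21 cells were treated. The compound dTAG brings about degradation of a protein carrying the matching tag, Rad21 is a cohesin subunit, and Ctcf is a DNA-binding protein of chromatin loop anchors. The tables hold X-linked genes, so depletion of Rad21 and Ctcf and the autosomal marker genes of XEN cells were not analysed here.

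Each group entered its table as 1 merged value per gene and allele, in FPKM, which is fragments scaled by transcript length and by library size. No value below therefore has an SD, and none of the differences has a replicate check. Sequencing depth is unknown. Tables were made separately, so an FPKM level is set only against levels of its own table. Between tables the text uses the Xi share, the percentage of Xa plus Xi FPKM that lies on Xi.

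Prefoldin is a cochaperone of the cytosol that holds newly made chains, above all of actin and tubulin, and hands them to the chaperonin CCT for folding. Vbp1 encodes a subunit of the canonical prefoldin hexamer and was found as a binding partner of the VHL tumour suppressor protein. Uxt encodes a related alpha-class protein that belongs to a prefoldin-like complex with URI. In human cells UXT also acts as a cofactor in transcription. Other prefoldin subunits are encoded on autosomes.

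The promoter windows of both genes are shown as background. The sequences run 5′ to 3′ over the 300 bases that surround each annotated start. They are RefSeq's, on GRCm38.p6, while mm9 is the build named for the tables. The Vbp1 window is chrX:75514047-75514346 on the plus strand and the Uxt window is chrX:20961929-20962228 on the minus strand. Capitals mark CpG dinucleotides, the sites of DNA methylation in mammals.
Vbp1: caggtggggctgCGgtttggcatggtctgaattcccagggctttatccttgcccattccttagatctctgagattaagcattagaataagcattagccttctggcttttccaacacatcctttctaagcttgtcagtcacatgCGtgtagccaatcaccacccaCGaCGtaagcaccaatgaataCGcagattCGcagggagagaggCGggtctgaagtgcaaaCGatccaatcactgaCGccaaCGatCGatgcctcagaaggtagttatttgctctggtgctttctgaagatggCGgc
Uxt: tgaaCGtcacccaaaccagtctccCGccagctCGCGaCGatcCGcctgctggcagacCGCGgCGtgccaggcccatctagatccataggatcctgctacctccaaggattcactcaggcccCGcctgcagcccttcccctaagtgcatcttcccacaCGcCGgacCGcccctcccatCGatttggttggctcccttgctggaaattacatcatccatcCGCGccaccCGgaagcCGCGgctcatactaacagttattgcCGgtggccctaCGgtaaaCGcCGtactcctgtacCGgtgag
The Vbp1 window held 12 CpGs, and 32.9% of the 1223 windows on X held as many or more. The Uxt window held 24 CpGs, a number that 9.48% of X windows reached. The GC content was 49.7% for Vbp1 and 61.3% for Uxt. The last 11 bases of the Vbp1 window, bases 290 to 300, are the letters searched as a long form of the binding motif of the zinc finger protein YY1. On either strand it was present in 9 of 1223 X windows (0.736%) and in 208 of 32851 windows of all chromosomes (0.633%). The short YY1 core CCATNTT matched in Vbp1 at bases 290 to 296 on the minus strand, inside the long form, and 19.5% of X windows held it. Neither YY1 form was found in the Uxt window, and the TATA box letters TATAAA were in neither window. These are matches of letters only, and a link between the windows and the levels on Xi was not tested.

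Vbp1 was among the more highly expressed X-linked genes on Xa and was nearly silent on Xi in the groups that served as reference. In WT it stood at 119.6 FPKM on Xa, rank 23 of 270 tested genes, and at 0.123 FPKM on Xi. Genes are called tested here if the sum of both alleles, averaged across a table's groups, was at least 1 FPKM. Its Xi share in WT was 0.102%, and 178 of the 270 tested genes were listed at 0 on Xi in the same column. In the other 4 reference groups its Xi share was 0.129% (XRRb_XaKO), 0.0544% (XRRc_XaKO), 0% (Rad21 degron with DMSO) and 0.699% (Ctcf degron with DMSO). All 5 shares thus lay below 1%.

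Uxt had a lower Xa level and no Xi value at all. In WT it stood at 52.4 FPKM on Xa, rank 46 of 270. On Xi it was listed at 0 in all 12 groups. It shared this with 37 other genes, 38 of 233 genes (16.3%) tested in every table. In 11 groups Uxt had an Xa value and therefore an Xi share of 0%. In Rad21 degron with dTAG it was listed at 0 on both alleles, so no share exists there. Vbp1 was listed at 0 on both alleles in no group.

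**Figure D1:**
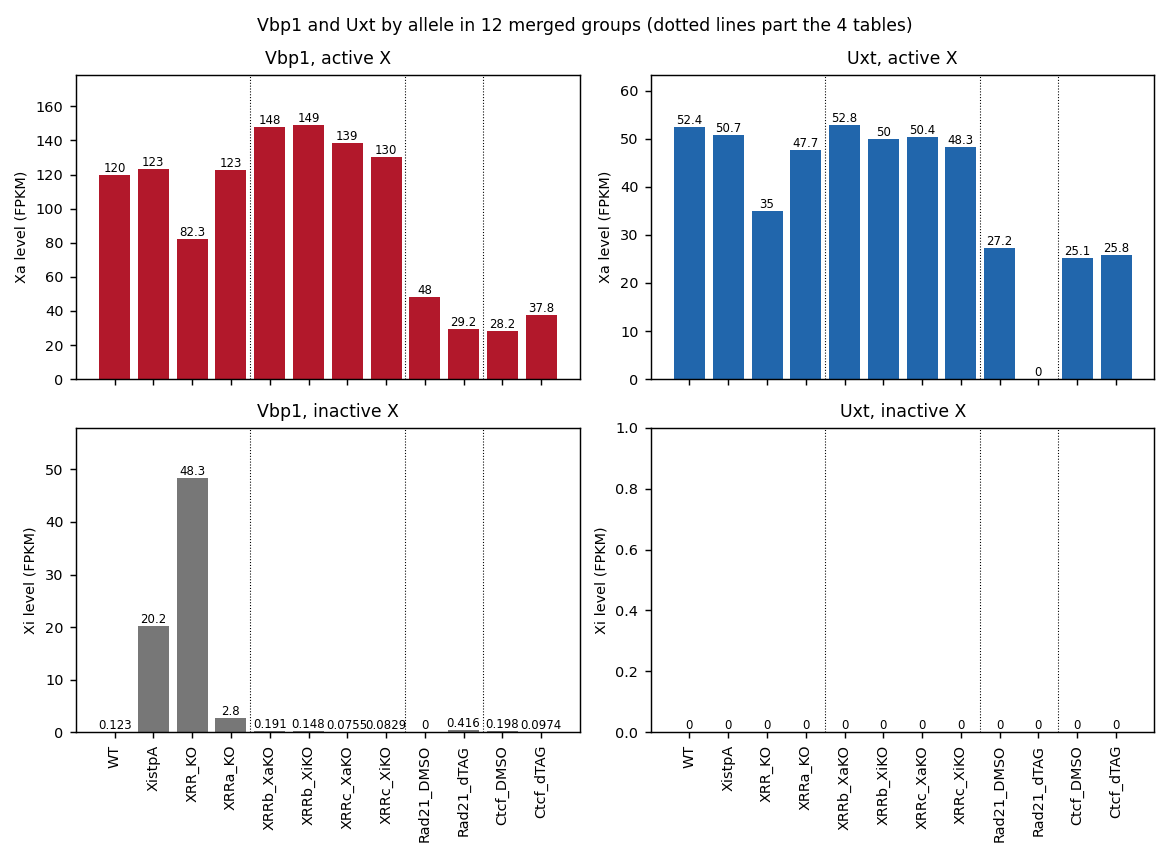
Xa and Xi level in FPKM of Vbp1 (left) and Uxt (right) in the 12 merged groups, 1 bar per group with its value above and no error bar because samples were merged. Dotted lines part the 4 tables, whose levels are not comparable with each other. Vbp1 on Xi stands out in XRR_KO (48.3 FPKM) and XistpA (20.2 FPKM), while every Uxt bar on Xi is 0.

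Values of Uxt are uncertain for a reason that does not touch Vbp1. Its protein-coding transcript Uxt-202 of 875 bases matched the processed pseudogene Gm8242 over 475 aligned bases at 99.2% identity, and Gm5808 over 477 bases at 95.4%. Both copies lie on other chromosomes. The authors' handling of reads that match several places is unknown here. The closest match of a Vbp1 transcript to another gene was the pseudogene Gm18692, at 85.4% identity over 329 bases. The libraries kept no strand, and Uxt overlaps Elk1 on its own strand and the antisense transcript A230072C01Rik in the GENCODE annotation. Elk1 was listed between 0 and 1.57 FPKM on Xa and A230072C01Rik between 0.317 and 1.03 FPKM on Xa, and both were at 0 on Xi throughout.

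In the table of WT, XistpA, XRR_KO and XRRa_KO, Vbp1 was higher on Xi in each of the other groups than in WT. Its Xi level was 0.123 FPKM in WT, 20.2 FPKM in XistpA, 48.3 FPKM in XRR_KO and 2.80 FPKM in XRRa_KO. The order of the levels was XRR_KO, XistpA, XRRa_KO and WT. The Xi shares followed the same order, with 37.0% in XRR_KO, 14.1% in XistpA, 2.22% in XRRa_KO and 0.102% in WT. Whether a raised Xi level comes from a few cells with much Vbp1 RNA or from many cells with little cannot be told apart in bulk samples. The XRR_KO column also merges samples of different clones, so a difference in Xi level between the clones would not be seen.

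In XRR_KO against WT, the Xi change of Vbp1 was 6.29 on the log2(FPKM + 0.5) scale, rank 2 of 270. A change of 1 or more on this scale, which understates changes of low genes, is called a rise here, and a change of -1 or less a fall. On Xi 15.9% of tested genes rose and 1.11% fell in XRR_KO. The change in Xi share was 36.9 percentage points. In XistpA against WT the Xi change was 5.05, rank 4 of 270, where 12.2% of tested genes rose and 1.48% fell. In XRRa_KO against WT it was 2.40, rank 7 of 270, where 5.93% rose and 1.11% fell. The 3 comparisons share the WT column, and the rises of Vbp1 were part of why it was chosen. Uxt, at 0 on Xi in all 4 columns, has no fold on Xi.

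**Figure D2:**
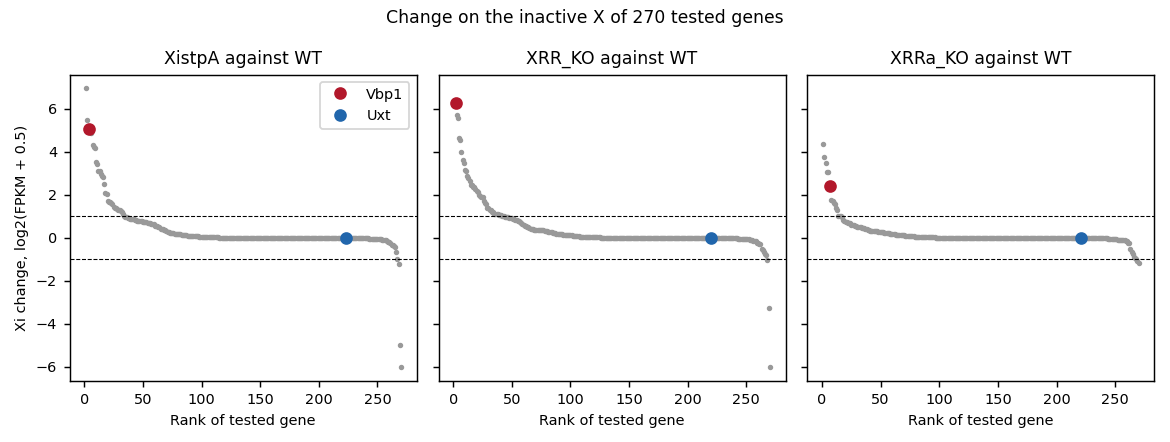
Change on Xi of the 270 tested genes, on the log2(FPKM + 0.5) scale, ordered from the highest rise to the largest fall in XistpA, XRR_KO and XRRa_KO against WT. Grey points are genes, dashed lines mark a change of 1 or -1, and the coloured points are Vbp1 (ranks 4, 2 and 7) and Uxt, which lies on the plateau of genes with no change.

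Among genes nearly silent on Xi in WT, few reached the Xi share of Vbp1. That share was part of why Vbp1 was chosen, so the counts below are descriptive and do not measure rarity. Of 221 tested genes with a WT share under 1%, a limit chosen after the values were seen, 19 reached 10% or more in XRR_KO, and 8 (3.62%), Vbp1 among them, reached the 37.0% of Vbp1 or more. In XistpA 17 reached 10%, and 14 (6.33%) reached the 14.1% of Vbp1. In XRRa_KO 5 reached 10%, and 15 (6.79%) reached the 2.22% of Vbp1. The median share of the 221 genes was 0% in each of the 3 groups.

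The levels of Xist, whose noncoding transcript spreads over the inactive X and sets off silencing, are given beside the Vbp1 shares. On Xi, Xist was at 15.5 FPKM in WT, 7.86 FPKM in XRRa_KO, 1.18 FPKM in XRR_KO and listed at 0 in XistpA. Tsix, the antisense gene of Xist, was listed on Xi at 31.2 FPKM in WT and at 0 in XistpA and XRR_KO. The libraries kept no strand, so the split of reads between Xist and Tsix is uncertain. XistpA had the lower Xist level and also the lower Vbp1 share of the pair XistpA and XRR_KO. Each of these is a merged value without a replicate check, so the order of the pair is only described. The part of Xist in the Vbp1 levels was not tested.

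On Xa the members moved little in XistpA and XRRa_KO and were lower in XRR_KO. Vbp1 on Xa was 119.6 FPKM in WT, 123.3 FPKM in XistpA, 122.9 FPKM in XRRa_KO and 82.3 FPKM in XRR_KO. Uxt on Xa was 52.4, 50.7, 47.7 and 35.0 FPKM in the same order. In XRR_KO the Xa changes were -0.54 for Vbp1 and -0.58 for Uxt, while the median Xa change of all tested genes was -0.19. Relative to that median they were -0.35 and -0.39, and neither met the size of a fall, which 3.7% of tested genes met, while 1.11% rose. These are 3 rises and 10 falls, which became 6 and 7 with scaled columns. In XistpA 1.11% of tested genes rose and 3.33% fell on Xa, and in XRRa_KO 0.37% rose and 0.37% fell, with neither member among them. The summed Xa plus Xi level of Vbp1 was 130.6 FPKM in XRR_KO, 143.4 FPKM in XistpA and 125.7 FPKM in XRRa_KO against 119.8 FPKM in WT. In XRR_KO Vbp1 had a lower Xa and a higher Xi level, and Uxt had only the lower Xa level. Counted from the largest Xa fall, Vbp1 ranked 72 and Uxt 64 of 270, so many genes fell further. A link between the levels of both alleles was not tested.

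The ratio of Vbp1 to Uxt on Xa does not depend on scaling between columns. Both values are FPKM, a scale per length of transcript. The share of reads that mark an allele can differ between genes, and the method of allele assignment is not given. The ratio is therefore one of listed Xa values and may differ from that of RNA amounts. The ratio was 2.28 in WT, 2.43 in XistpA, 2.35 in XRR_KO and 2.58 in XRRa_KO. It ran from 2.70 to 2.98 in the XRRb and XRRc table. It was 1.77 in Rad21 degron with DMSO, and 1.12 and 1.46 in Ctcf degron with DMSO and dTAG. Vbp1 exceeded Uxt in all 11 columns with a Uxt value. The ratios are not ranked between tables, which were made separately, and they carry the uncertainty of the Uxt values.

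In the XRRb and XRRc lines neither member changed by the size of a rise or fall on either allele. Vbp1 on Xi was 0.191 FPKM in XRRb_XaKO and 0.148 FPKM in XRRb_XiKO. It was 0.0755 FPKM in XRRc_XaKO and 0.0829 FPKM in XRRc_XiKO. These 4 levels are all below 0.2% of the Xa level of Vbp1, which was 148.1, 148.9, 138.7 and 130.1 FPKM in the same order. On Xi, 1.92% of 261 tested genes rose and 0% fell between the XRRb groups, and 0.766% rose and 1.53% fell between the XRRc groups. On Xa, 0.766% rose and 2.3% fell between the XRRb groups, and 1.15% rose and 1.15% fell between the XRRc groups. Uxt on Xa was 52.8 and 50.0 FPKM in XRRb_XaKO and XRRb_XiKO, and 50.4 and 48.3 FPKM in XRRc_XaKO and XRRc_XiKO. Its Xa changes were -0.08 and -0.06, against medians of -0.09 and -0.05 over all tested genes.

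With Rad21 degradation Vbp1 had a small Xi value and Uxt lost its listing. Vbp1 on Xi was listed at 0 with DMSO and at 0.416 FPKM with dTAG, a share of 1.41%, and no fold is given against a listed 0. On Xi 4.05% of the tested genes rose and 3.24% fell. Whether Vbp1 counts among the rises turns on the pseudocount, since it was below the size of a rise with 0.5 or 1 and past it with 0.1. On Xa, the Vbp1 level was 48.0 FPKM in the DMSO group against 29.2 FPKM in the dTAG group, a change of -0.71. The median Xa change of the 247 tested genes was -0.26, which leaves -0.45 for Vbp1, and on Xa 6.48% of tested genes rose and 15% fell. These are 16 rises and 37 falls, which became 26 and 19 with columns scaled to equal median Xa FPKM. Uxt on Xa was 27.2 FPKM with DMSO and listed at 0 with dTAG. Uxt was among 5 of 247 tested genes at 0 on both alleles in that column, with Ccdc22, Gm5643, Prickle3 and Usp51. In the DMSO column Emd, Gm41 and Gm6568 were listed so. Of 233 genes tested in every table, 7 were at 0 on both alleles in some group. A listed 0 for a gene found well above 0 in the other 11 groups can be a failed estimate, so the 0 of Uxt is not read as loss of its RNA.

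With Ctcf degradation both members kept their state. The Xi level of Vbp1 was 0.198 FPKM in the DMSO group and 0.0974 FPKM in the dTAG group, shares of 0.699% and 0.257%. Vbp1 on Xa was 28.2 and 37.8 FPKM, a change of 0.42 where the median of 277 tested genes was 0.23. Uxt on Xa was 25.1 and 25.8 FPKM, a change of 0.04, and relative to the median it was -0.19 while Vbp1 was 0.18. On Xi 0.361% of tested genes rose and as many fell, and on Xa 5.42% rose and 0.722% fell.

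**Figure D3:**
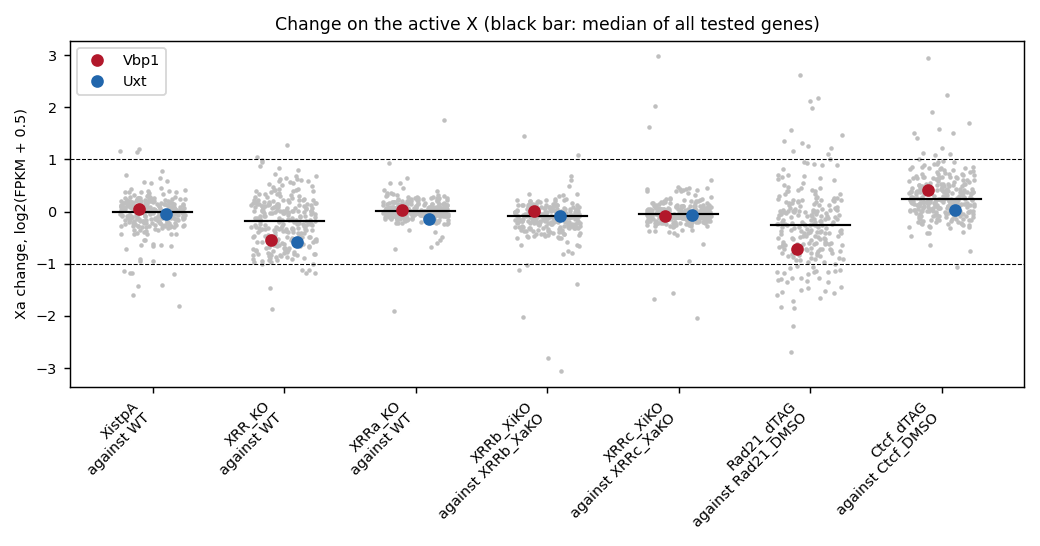
Change on Xa of Vbp1 and Uxt in the 7 comparisons, on the log2(FPKM + 0.5) scale, over all tested genes listed above 0 in both columns (grey) and the median of all tested genes (black bar). Both members lie between the dashed lines at 1 and -1 in every comparison shown, and Uxt has no point for Rad21 because it was listed at 0 with dTAG.

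Over all 12 groups, the Xi share of Vbp1 was highest in XRR_KO, XistpA, XRRa_KO and Rad21 degron with dTAG, in that order. The other 8 groups were below 1%. With 1 merged value per group, neighbours in this order cannot be separated, and a share near 1% rests on little Xi signal.

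The tested genes around Vbp1 had lower Xi levels than Vbp1 in XistpA, XRR_KO and XRRa_KO. By RefSeq gene order the 5 on either side were Dkc1, Mpp1, Fundc2, Mtcp1 and Brcc3, and Pls3, Tbl1x, Prkx, Prrg1 and Tab3. No limit was set on distance, so some of them may lie far from Vbp1. Of these 10, 4 were listed at 0 on Xi in all 12 groups (Dkc1, Mtcp1, Tbl1x and Tab3). Only Mpp1, which encodes a palmitoylated membrane scaffold protein, rose on Xi by the size rule, from a listed 0 in WT to 2.64 FPKM in XRR_KO, a share of 9.41%. In XistpA Mpp1 had 0.337 FPKM on Xi, a share of 0.761%. Brcc3, which encodes a deubiquitinase of the BRCA1-A complex and lies next to Vbp1 among the tested genes, had 0.022 FPKM on Xi in XRR_KO. Pls3, an actin-bundling plastin gene on the other side, was listed at 0 there. No neighbour rose on Xi in XistpA or XRRa_KO. These counts of 1, 0 and 0 of 10 stand beside 15.9%, 12.2% and 5.93% of all tested genes that rose on Xi in XRR_KO, XistpA and XRRa_KO, and 10 genes are too few to set the neighbours apart from the rest. On Xa Mtcp1 fell in XRR_KO (-1.46), where 3.7% of tested genes fell. Dkc1, a pseudouridine synthase gene, and Brcc3 fell on Xa in Rad21 degron with dTAG (-2.69 and -1.16), where 15% of tested genes fell. With columns scaled to equal median Xa FPKM, Dkc1 was at -2.30 and Brcc3 at -0.77, no longer a fall.

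**Figure D4:**
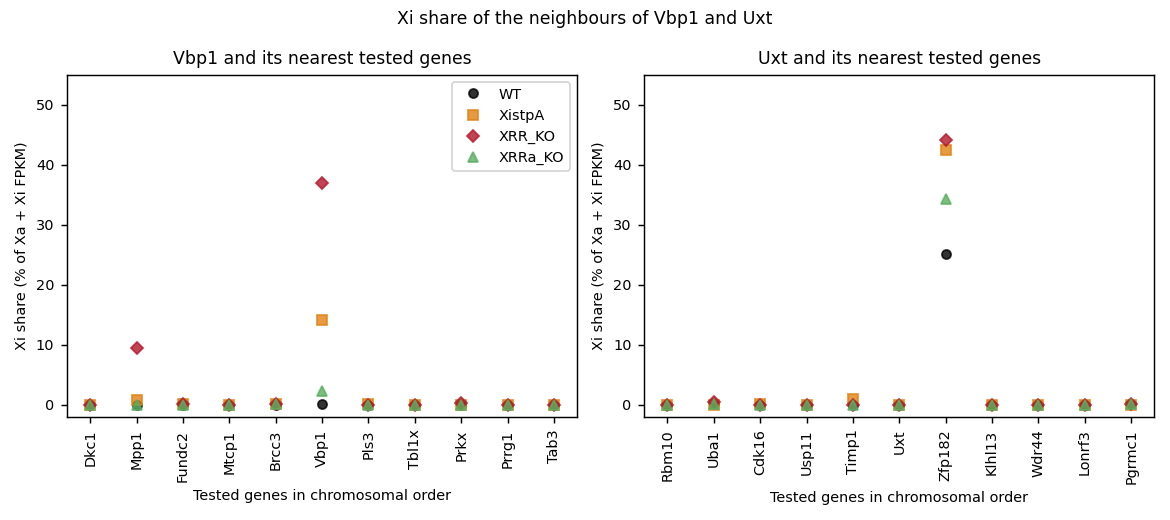
Xi share in percent of Vbp1 (left) and Uxt (right) and the 5 nearest tested genes on either side, in chromosomal order and evenly spaced, for WT, XistpA, XRR_KO and XRRa_KO. Vbp1 reaches 37.0% and 14.1% between neighbours near 0 except Mpp1 (9.41% in XRR_KO), and Uxt at 0 lies beside Zfp182, which has a share of 25.1% in WT.

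The neighbours of Uxt, again by order without a limit on distance, were Rbm10, Uba1, Cdk16, Usp11 and Timp1 on one side. On the other side they were Zfp182, Klhl13, Wdr44, Lonrf3 and Pgrmc1. As around Vbp1, 4 of these 10 were listed at 0 on Xi in all 12 groups, namely Rbm10, Usp11, Klhl13 and Wdr44. Next to Uxt among the tested genes lay the zinc finger gene Zfp182. Its Xi share was 25.1% in WT, 42.4% in XistpA, 44.1% in XRR_KO and 34.3% in XRRa_KO. Its level on Xi was low, 0.258 FPKM in WT and 0.605, 0.520 and 0.396 FPKM in XistpA, XRR_KO and XRRa_KO. Its share was above 10% in all 12 groups, from 13% in Ctcf degron with DMSO to 50% in Rad21 degron with dTAG. No neighbour of Uxt rose or fell on Xi by the size rule in any of the 7 comparisons. On Xa Timp1, an inhibitor of metalloproteinases, fell in XistpA and XRR_KO (-1.17 and -1.87) and rose in XRRa_KO (1.75), with 3.38 FPKM in WT and 1.23, 0.563 and 12.6 FPKM in XistpA, XRR_KO and XRRa_KO. The Timp1 fall in XistpA was lost with a pseudocount of 1 (-0.98). Timp1 also fell on Xa in XRRc_XiKO against XRRc_XaKO (-1.61), where 1.15% of tested genes fell. In Rad21 degron with dTAG, Usp11 rose on Xa (1.00), Timp1 went from a listed 0 to 0.633 FPKM and Rbm10 fell (-1.46), where 6.48% rose and 15% fell. With a pseudocount of 1 the change of Usp11 was 0.77, and that of Timp1 was also below the size of a rise. Rbm10 values are uncertain, since close copies of it lie on autosomes.

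The genes closest to Vbp1 in Xi share over the 12 groups were Tmsb15b2, Amot, Rp2h, Zdhhc9 and Zc4h2. The mean absolute difference of their share from that of Vbp1 was 1.95, 2.24, 2.26, 2.32 and 2.5 percentage points, among 232 genes compared. Most groups have shares near 0, so 2 groups set this likeness. In XRR_KO the shares were 29.1% for Tmsb15b2, a thymosin gene, 17.9% for Amot, the angiomotin gene, 24.9% for Rp2h, 24.1% for the palmitoyltransferase gene Zdhhc9 and 38.8% for the zinc finger gene Zc4h2. In XistpA they were 6.69%, 11.7%, 3.99%, 4.06% and 38.5%, so Zc4h2 alone among these 5 exceeded Vbp1 there. All 5 had far lower levels, from 0.765 to 1.91 FPKM on Xi in XRR_KO against 48.3 FPKM for Vbp1. Tmsb15b2 has near-identical copies on X and is uncertain. None of the RefSeq windows of these 5 genes, or of the neighbours of Vbp1 that have a window, held the long YY1 form, which 0.736% of X windows hold. The short YY1 core was present in the windows of Zc4h2, Mtcp1 and Tab3. For Uxt, 37 genes were tied at a difference of 0, and Dkc1 was among them.

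**Figure D5:**
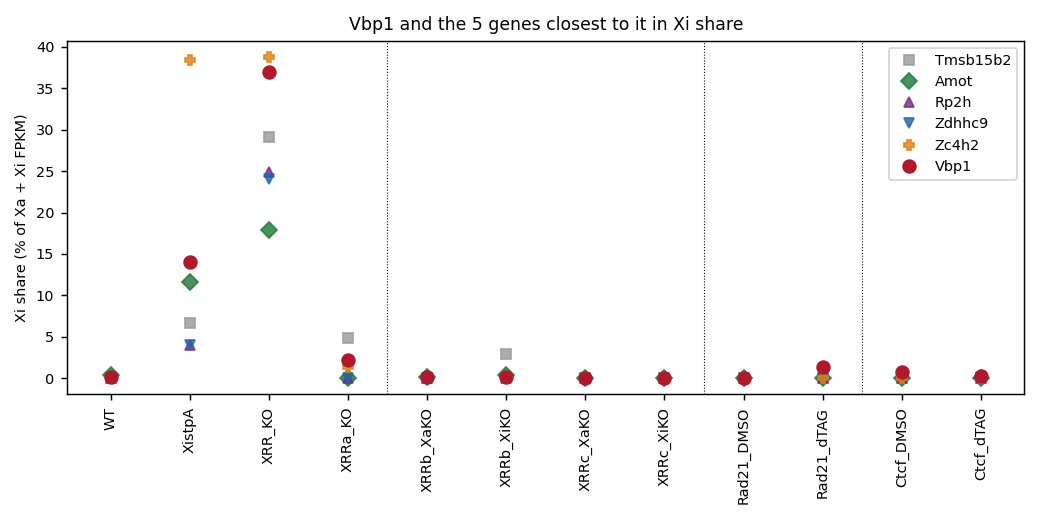
Xi share in percent of Vbp1 and of the 5 genes with the smallest mean absolute difference from it, in the 12 merged groups, with dotted lines between the 4 tables. All 6 genes are below 6% outside XistpA and XRR_KO, and in XRR_KO they span 17.9% (Amot) to 38.8% (Zc4h2).

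Other X-linked genes of protein folding, assembly and quality control were too few to be set apart from the background by their count of rises on Xi. Of 12 such genes listed, Pin4, Psmd10, Ubqln2 and Ssr4 were at 0 on both alleles in all 12 groups, as were 450 of the 953 genes listed in every table. A listed 0 on both alleles does not separate absent RNA from a lack of reads that mark an allele. Of the 12, 7 passed the filter on low values in all 4 tables. On Xi, 1 of these 7 rose in XRR_KO, where 15.9% of all tested genes rose. None of the 7 rose in the other 6 comparisons, with 12.2% of all tested genes in XistpA, 5.93% in XRRa_KO and 4.05% or less in the others. The riser was Rp2h, whose product resembles tubulin cofactor C and acts on the small GTPase ARL3, from a listed 0 in WT to 1.17 FPKM. The list's median Xi change in XRR_KO was 0, as over all tested genes. Bcap31, which encodes an endoplasmic reticulum chaperone for export of membrane proteins, had 157.3 FPKM on Xa in WT, above Vbp1, but 0.24 FPKM on Xi in WT and 0.11 FPKM in XRR_KO. Vma21, an assembly factor of the vacuolar proton pump, had no Xi value in any of the 12 groups. On Xa, Timm8a1, a chaperone gene of mitochondrial import, fell in XRR_KO (-1.01), where 3.7% of tested genes fell, and in Rad21 degron with dTAG (-1.83), where 15% fell. With scaled columns the change in XRR_KO was -0.85, no longer a fall. Nap1l2, a histone chaperone gene, rose on Xa in Ctcf degron with dTAG (1.42), where 5.42% of tested genes rose, and no other list member passed the size rule on Xa.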

How the data were processed

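Per the labels' protocols, poly(A) RNA of the 32 samples (12 groups) was turned into libraries by Smart-seq2, a method without strand information. The authors deposited 4 tables of FPKM values for Xa and Xi, in 24 columns merged over the samples of a group, per the file headers and names. Tools in the submitters' processing notes include HISAT2 2.2.0, StringTie 2.1.1 and Trim Galore 0.6.4, with build mm9. The sources used here do not give the method of allele assignment. In the Ctcf table, columns give just the treatment, and the table's own name ties them to the Ctcf samples.

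FPKM carries no read total, so depth is unknown and intervals are left out. Genes averaging 1 FPKM or more (Xa plus Xi) in a table were tested, which left 270, 261, 247 and 277 genes. A log2(FPKM + 0.5) difference of 1 or more between columns was called a rise or fall. Neighbours were the 5 nearest tested genes on either side in RefSeq order, which placed 269 of 270 genes. Likeness was the mean absolute difference in Xi share over at least 10 groups. Other genes were named by a list of folding factors, and Elk1, A230072C01Rik and the genes at 0 on both alleles were named after their values were seen. The members and lists were chosen with earlier results of these data known. Protein-coding transcripts of 38 named genes (GENCODE M21) were aligned to all transcripts with minimap2 2.31, and copies needed 95% identity over 50% of the length. Motifs were searched on both strands. Alternatives were pseudocounts of 0.1 and 1, no filter or 5 FPKM, scaling of columns to equal median Xa FPKM, and a median in place of the mean for likeness. Computation used pandas 2.3.3 and numpy 2.4.6 in Python 3.11.15, and plots used matplotlib 3.10.9.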

Additional observations from a re-analysis of the deposited data

How the results depend on the processing

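In 59 of 60 recomputed changes of a member, over pseudocounts and scaling, the call of a rise, a fall or neither was the same as with a pseudocount of 0.5. The exception was Vbp1 on Xi in Rad21 degron, from a listed 0, whose change was 0.87 with a pseudocount of 0.5 and 2.37 with 0.1, a value set by the pseudocount and no bound. For other named genes with a call, recomputed as an addition after seeing the data, 40 of 45 changes kept it. The Xi change of Vbp1 lay between 4.24 and 6.51 in XistpA, between 5.46 and 7.76 in XRR_KO and between 1.76 and 3.70 in XRRa_KO, lowest with a pseudocount of 1 and highest with 0.1. With columns scaled to equal median Xa FPKM, 4 small Xa changes turned sign, to -0.22 for Uxt in Ctcf degron, 0.06 for Uxt in XRRb_XiKO, 0.01 for Uxt in XRRc_XiKO and -0.01 for Vbp1 in XRRa_KO. The genes closest to Vbp1 depend on the measure, since a median difference shared 0 of 5 genes with the mean difference. Of 140 recounts of all genes, 96 were within 1.5 times. With a pseudocount of 0.1, Xi rises numbered 58 in XistpA (from 33), 69 in XRR_KO (from 43), 33 in XRRa_KO (from 16), 12 in XRRb_XiKO (from 5), 8 in XRRc_XiKO (from 2), 18 in Rad21_dTAG (from 10), 6 in Ctcf_dTAG (from 1), and falls numbered 6 in XRR_KO (from 3), 6 in XRRa_KO (from 3), 4 in XRRb_XiKO (from 0), 11 in XRRc_XiKO (from 4), 16 in Rad21_dTAG (from 8), 6 in Ctcf_dTAG (from 1). With a pseudocount of 0.1, Xa rises numbered 2 in XRRa_KO (from 1). With a pseudocount of 1, Xi rises numbered 3 in XRRb_XiKO (from 5), 1 in XRRc_XiKO (from 2), 0 in Ctcf_dTAG (from 1), and falls numbered 2 in XistpA (from 4), 0 in XRRa_KO (from 3), 3 in Rad21_dTAG (from 8). With a pseudocount of 1, Xa rises numbered 1 in XRR_KO (from 3), and falls numbered 1 in Ctcf_dTAG (from 2). Without a filter, Xi rises numbered 2 in Ctcf_dTAG (from 1). Without a filter, Xa rises numbered 5 in XRR_KO (from 3), 4 in XRRa_KO (from 1), 4 in XRRb_XiKO (from 2), and falls numbered 2 in XRRa_KO (from 1), 9 in XRRc_XiKO (from 3), 4 in Ctcf_dTAG (from 2). With a filter of 5 FPKM, Xi rises numbered 1 in XRRc_XiKO (from 2). With a filter of 5 FPKM, Xa rises numbered 1 in XistpA (from 3), 1 in XRR_KO (from 3), 0 in XRRa_KO (from 1), 1 in XRRc_XiKO (from 3), 7 in Rad21_dTAG (from 16), 5 in Ctcf_dTAG (from 15), and falls numbered 1 in XistpA (from 9), 0 in XRRa_KO (from 1), 0 in XRRb_XiKO (from 6), 1 in Ctcf_dTAG (from 2). With columns scaled to equal median Xa FPKM, Xi falls numbered 5 in Rad21_dTAG (from 8). With columns scaled to equal median Xa FPKM, Xa rises numbered 6 in XRR_KO (from 3), 26 in Rad21_dTAG (from 16), and falls numbered 19 in Rad21_dTAG (from 37). No paired analysis was possible because the columns are merged over replicates, and for the same reason no replicate could be left out. Uxt on Xa in Rad21 and on Xi, at a listed 0 in the first group of each comparison, has no recomputed value. The unknown depth limits how low Xi levels, below 1 FPKM, can be read.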
